A study of Schizosaccharomyces japonicus with 2 samples.

Results

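The 23 shortest numbered supercontigs of the genome of the fission yeast Schizosaccharomyces japonicus, supercontigs 8 to 30, were described by the small RNA listed on them. They were chosen by supercontig number and by a mapped length of 21 to 28 nt, called the span here, and not by any measured level. Earlier results of these data were known when this choice was made. A member is a distinct first base, last base and strand, and 73041 members were listed in either library, out of 594345 over all supercontigs. Replicate 1 listed 19336 of them and replicate 2 listed 63584. A supercontig is a stretch of assembled genome sequence, and the 23 described here ran from 2.16 to 20.9 kb up to the last base with a read, 165 kb in all or 1.41% of the mapped length.

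In fission yeasts, small RNAs are cut by the nuclease Dicer from double-stranded RNA and loaded onto an Argonaute protein, which they guide to matching transcripts. They are best known for keeping repeats, such as those at centromeres, in a silent form. In S. japonicus small RNAs are also known to match retrotransposons, and short supercontigs of an assembly often consist of repeats that could not be joined to a chromosome. What the bases of these supercontigs encode was not analysed here.

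Both libraries, replicate 1 and replicate 2, came from wild-type cells of strain yFS275 in logarithmic growth, and there was no second condition. RNA was selected by size and joined to adapters that need a 5′ monophosphate and a 3′ hydroxyl group, so other RNA ends were not captured. Nothing in the labels says that the libraries came from separate cultures, so their spread may be technical. With 1 group of 2 libraries no test between groups was possible, and differences are set against the SD between the libraries (n = 2) and against counting intervals.

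The files listed 3086539 mapped reads for replicate 1 and 3492513 for replicate 2. A region that differs strongly between the libraries, bases 1 to 37000 of supercontig 3, was left out of the totals, which leaves 889190 and 2457514 reads of 21 to 28 nt. Levels are given as RPM, reads per 1000000 of these. A read was thus worth more in replicate 1, and a count of 0 allows up to 3.37 RPM in replicate 1 and 1.22 RPM in replicate 2. A mapping score of 0 is read here as a sequence with several equal places in the genome, of which the files list 1, so a level built on such reads may belong to another copy. Intervals and floors cover counting error only, since PCR copies of a molecule could not be told from separate molecules.

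Supercontigs 8 to 30 held far more small RNA than their length. They carried 78531 reads in replicate 1, or 8.83% of the total (95% Clopper-Pearson interval 8.77 to 8.89), and 317094 reads or 12.9% in replicate 2 (12.86 to 12.95), a mean of 10.9% ± 2.88 (SD, n = 2). Their density was 535 RPM per kb in replicate 1 and 782 in replicate 2. Supercontigs 1 to 3 without the left-out region had 62.8 and 46.9 RPM per kb, so the short supercontigs lay 8.53 and 16.7 times higher, or 12.6 ± 5.76 (SD, n = 2). This mean was 6.35 with scores above 0 alone and 2.34 per kb of covered bases. Supercontigs 4 to 7 had 576 and 949 RPM per kb, a level close to that of supercontigs 8 to 30 in both libraries.

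Dense windows were found on 22 of the 23 supercontigs. Of their 176 windows of 1 kb, 101 held at least 100 RPM in each library, or 57.4%, against 5.18% of the windows of all supercontigs. In 80 of the windows, or 45.5%, the strand with fewer reads held at least 10% as well, against 3.88% over all supercontigs. The dense windows carried 96.7% and 93.8% of the reads of supercontigs 8 to 30. On supercontigs 24, 28 and 29 every window was dense, and on supercontig 9 none was. The median window held 175 and 329 RPM on supercontigs 8 to 30, against 2.25 and 1.22 RPM on supercontigs 1 to 3. On supercontigs 4 to 7 it held 164 and 317 RPM, close to supercontigs 8 to 30.

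Supercontig 16 had the highest density, with 4053 RPM per kb in replicate 1 and 1777 in replicate 2, a mean of 2915 ± 1609 (SD, n = 2). Supercontig 26, only 2.80 kb long, followed with 1150 and 3445 RPM per kb, and supercontig 10 with 1100 and 1069. The order of supercontigs 16 and 26 was opposite in the libraries, so their means do not differ beyond the spread. Supercontigs 10, 12 and 16 together held 61.5% of the reads of replicate 1 and 28.5% of replicate 2.

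Of the others, 15 lay between 197 and 735 RPM per kb in replicate 1 and between 420 and 1274 in replicate 2. Supercontigs 19, 11 and 22 had 197, 217 and 218 RPM per kb in replicate 1 and 502, 601 and 611 in replicate 2. Supercontigs 30 and 24 had 225 and 292 RPM per kb in replicate 1 and 582 and 623 in replicate 2. These 5 were all higher in replicate 2, and their order was nearly the same in both libraries. Supercontigs 29, 27 and 17 had 302, 351 and 356 RPM per kb in replicate 1 and 829, 420 and 870 in replicate 2, so that supercontig 27 fell behind its neighbours there. Supercontigs 15, 21 and 13 had 367, 373 and 391 RPM per kb in replicate 1 and 1064, 1274 and 1114 in replicate 2. Supercontigs 18, 14, 28 and 12 had 406, 470, 595 and 735 RPM per kb in replicate 1 and 1155, 1231, 1139 and 617 in replicate 2. Supercontig 12 was thus the fourth densest in replicate 1 and in the middle of the order in replicate 2. Across the 23 supercontigs the densities had Pearson r = 0.92 on a log scale and Spearman rho = 0.89 between the libraries, and r = 0.79 without supercontig 9. These points share libraries and depth, and the values are a description.

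**Figure D1:**
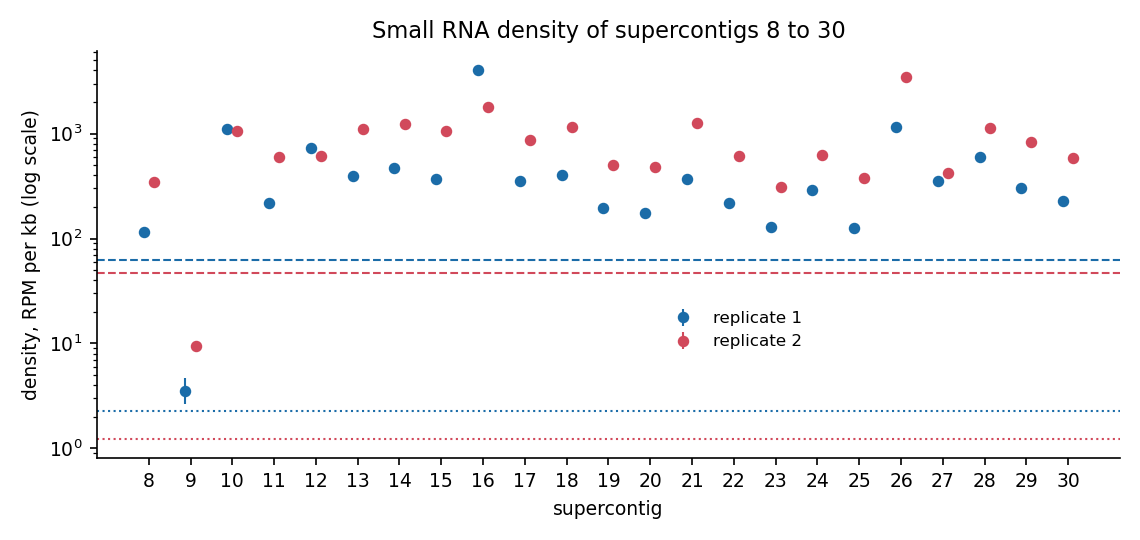
Density of small RNA in RPM per kb of mapped length (log axis) for each of supercontigs 8 to 30, with points for replicate 1 and replicate 2 and bars for the 95% Poisson counting interval, mostly smaller than the points. Dashed lines give the density of supercontigs 1 to 3 without the left-out region (62.8 and 46.9 RPM per kb) and dotted lines their median 1-kb window (2.25 and 1.22 RPM). Supercontig 9 alone lies below the dashed lines in both libraries, at 3.56 and 9.50 RPM per kb.

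Supercontig 9 was the 1 supercontig with few reads. It held 49 reads in replicate 1 and 361 in replicate 2 over 15.5 kb, or 3.56 RPM per kb (95% Poisson interval 2.63 to 4.71) and 9.50 (8.54 to 10.5). The next lowest was supercontig 8 in replicate 1 and supercontig 23 in replicate 2, at 32.6 and 32.4 times the density of supercontig 9. A single 100-base bin on its minus strand, bases 3501 to 3600, held 26 of the 49 reads and 145 of the 361, of which 0 and 1.38% had a mapping score of 0, and with 84.6% and 71.0% of the 5′ ends at base 3540. The other 23 and 216 reads came to 1.67 and 5.68 RPM per kb. In replicate 1, 4 of its 16 windows had no read, and outside the window with the leading bin none passed 3.37 RPM. In replicate 2 each window had reads, and those outside that window ran from 2.03 to 11.4 RPM. Supercontig 9 thus lay below the density of supercontigs 1 to 3 in both libraries. Its own median window held 1.69 RPM in replicate 1, below the 2.25 RPM of supercontigs 1 to 3, and 5.09 RPM in replicate 2, above their 1.22 RPM. The reads outside its leading bin mostly had a score of 0, 91.3% in replicate 1 and 95.4% in replicate 2.

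The next lowest densities were above that of supercontigs 1 to 3 in both libraries. Supercontig 23, with 344 and 2273 reads, had 129 RPM per kb in replicate 1 and 307 in replicate 2, and supercontig 25 had 125.5 and 376. Supercontig 8, the longest of the 23, had 116 and 347 RPM per kb, and supercontig 20 had 175 and 485. On supercontig 8 the first 16 kb held 93.6% and 93.5% of the reads, and bases 16001 to 18000 held 25 and 156 reads, or 14.1 and 31.7 RPM per kb. Stretches without any read in either library longer than 1000 nt were found on 6 supercontigs. The longest was 4207 nt on supercontig 11, from base 2950 to 7156. Supercontigs 10, 20 and 17 had stretches of 1504, 1436 and 1159 nt, and supercontigs 8 and 12 of 1050 and 1044 nt. Whether these stretches hold unresolved bases was not tested. The reads covered between 3.13% (supercontig 9) and 91.2% (supercontig 18) of the bases in replicate 1, and between 21.4% (supercontig 9) and 99.5% (supercontig 29) in replicate 2.

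Reads lay on both strands of nearly every supercontig. The strand with fewer reads, taken supercontig by supercontig, held 37.3% and 32.8% of the reads, or 35.1% ± 3.18 (SD, n = 2), and in 22 of 23 supercontigs it held at least 10% in both libraries. The exception was supercontig 27, where the plus strand held 4.96% of 826 reads in replicate 1 (95% Clopper-Pearson interval 3.59 to 6.67) and 11.7% of 2732 in replicate 2 (10.53 to 12.98). Window by window the minor strand held less, 16.5% and 24.7%, because stretches with opposite strands add up within a supercontig.

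The strand balance differed between supercontigs by more than between libraries. The SD of the plus-strand share over the 23 supercontigs was 15.4 percentage points, and the median SD between the libraries was 2.07. The most even were supercontig 14, with 43.6% and 44.9% on the plus strand, supercontig 13 with 57.3% and 54.3%, and supercontig 25 with 42.6% and 42.4%. The least even after supercontig 27 were supercontig 17, with 13.2% and 11.4%, and supercontig 26 with 17.8% and 17.3%. The minus strand was the fuller in both libraries on 19 supercontigs and the plus strand on 3, supercontigs 12, 13 and 28. Which strand is called plus is a convention of each supercontig, so the 19 say nothing about a direction in the genome. Supercontig 10 changed sides, with 38.3% on the plus strand in replicate 1 and 55.6% in replicate 2, and the share moved by over 10 percentage points on supercontigs 10, 12 and 16 and on no other.

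**Figure D2:**
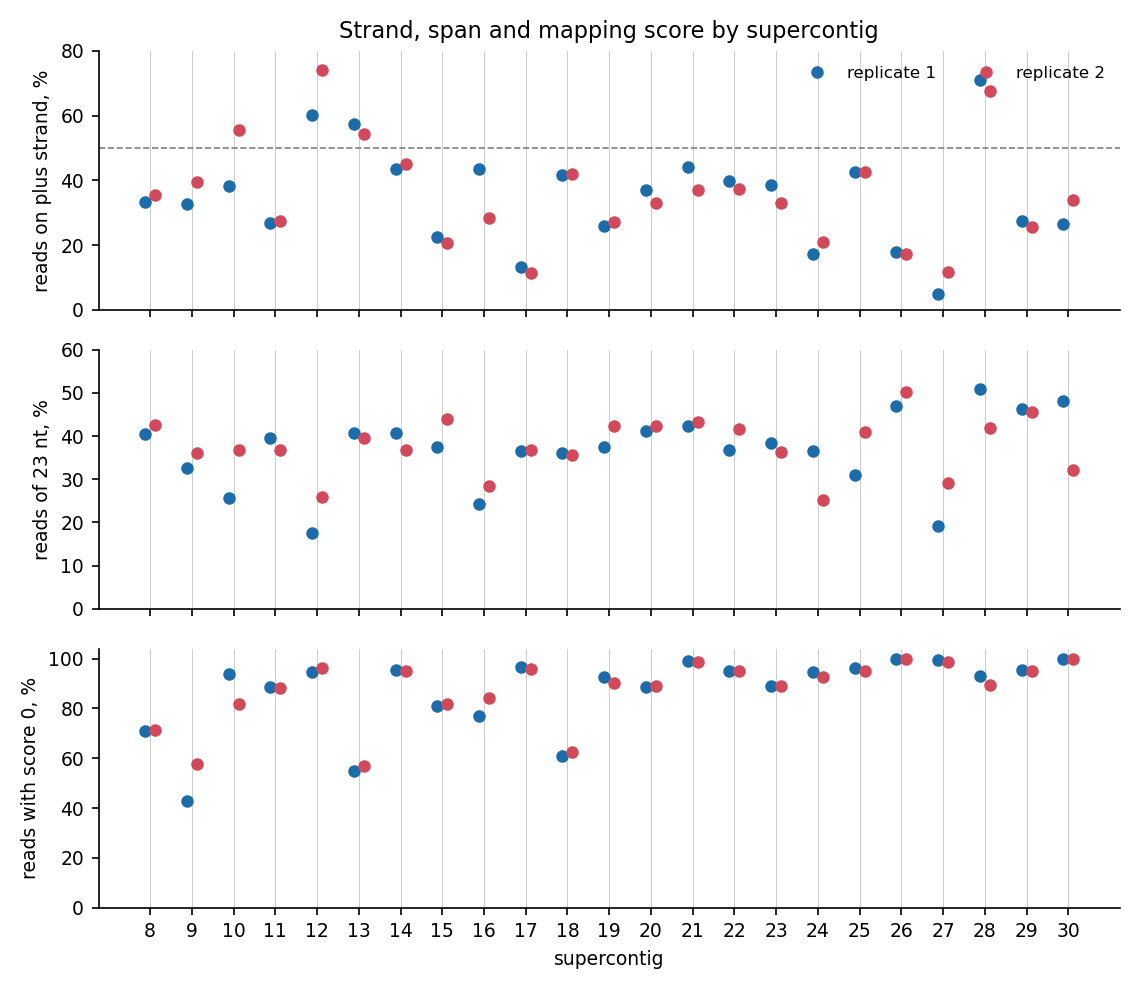
Share of reads on the plus strand (dashed line at 50%), share of reads of 23 nt and share of reads with a mapping score of 0, in percent, for each of supercontigs 8 to 30 in replicate 1 and replicate 2. Strand and score stay close between the libraries on most supercontigs, the strand moves most on supercontigs 10, 12 and 16, and the 23-nt share of replicate 1 is lowest on supercontig 12 (17.6%).

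A span of 23 nt was the most frequent on 17 of the 23 supercontigs in both libraries. Over all 23 it held 29.9% and 37.8% of the reads, or 33.9% ± 5.62 (SD, n = 2), and 21 nt, the lower limit of the labelled sizes, held 13.5% and 10.6%. On supercontigs 1 to 3 without the left-out region 21 nt held 25.04% and 15.4%, and 23 nt held 24.7% and 31.7%. In both libraries the short supercontigs thus had a smaller share at 21 nt and a larger share at 23 nt than supercontigs 1 to 3. However, both differences between the means were within 2 SD of supercontigs 1 to 3 (12.05% ± 2.05 against 20.2% ± 6.79 for 21 nt and 33.9% ± 5.62 against 28.2% ± 4.91 for 23 nt, SD, n = 2). On supercontigs 4 to 7, 21 nt held 20.62% in replicate 1 and 10.96% in replicate 2, and 23 nt held 27.54% and 36.98%. These shares lay between those of supercontigs 1 to 3 and 8 to 30 in both libraries. In replicate 2 they were close to supercontigs 8 to 30, so the profile was not particular to the short supercontigs there. The highest 23-nt shares were those of supercontig 26, with 46.9% and 50.1%, supercontig 28 with 50.9% and 41.9%, and supercontig 29 with 46.3% and 45.5%. The lowest were those of supercontig 12, with 17.6% and 25.8%, supercontig 27 with 19.1% and 29.1%, and supercontig 16 with 24.3% and 28.4%.

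The exceptions to a leading 23 nt had other leading spans. On supercontig 16 reads of 24 nt led in both libraries, with 38.4% and 33.1%. On supercontig 12 the leading span was 22 nt in replicate 1 and 25 nt in replicate 2, and on supercontig 10 it was 25 nt in replicate 1, with 29.1% of the reads, and 23 nt in replicate 2. Supercontig 24 led with 24 nt in replicate 1 and 22 nt in replicate 2. On supercontigs 9 and 27 it was 22 nt in replicate 1 and 23 nt in replicate 2.

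Among supercontigs 8 to 30, numbers 10, 12, 16 and 27 stood apart in the library ratio, the RPM of replicate 2 over that of replicate 1. In sum supercontigs 8 to 30 had a ratio of 1.46. Supercontigs 1 to 3 without the left-out region had 0.747 and supercontigs 4 to 7 had 1.65. A low ratio is thus meant here against the other supercontigs from 8 to 30, and not against the whole genome. Leaving out supercontig 9 for its few reads, the 22 others had a median of 2.68, and 18 of them lay between 1.92 (supercontig 28) and 3.41 (supercontig 21). After supercontig 21 the highest were supercontigs 26 and 8, at 2.997 and 2.996. Supercontig 16 had a ratio of 0.438 (95% counting interval 0.431 to 0.446), supercontig 12 one of 0.839 (0.818 to 0.860), supercontig 10 one of 0.972 (0.953 to 0.990) and supercontig 27 one of 1.197 (1.11 to 1.29). These 4 held 62.6% of the reads of supercontigs 8 to 30 in replicate 1 and 29.3% in replicate 2. Without them the ratio in sum was 2.76 and the 23-nt share 40.6% as the mean of the libraries.

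In replicate 1 the 23-nt share separated these supercontigs from the rest. It ran from 17.6% to 25.7% on the 4 supercontigs and from 31.1% to 50.9% on the 18 others. In replicate 2 the ranges overlapped, with 25.8% to 36.7% against 25.3% to 50.1%. Over the 22 supercontigs the 23-nt share and the log2 ratio had r = 0.73 and rho = 0.44 in replicate 1 and r = 0.65 and rho = 0.71 in replicate 2. These values are a description, since both measures come from the same reads.

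**Figure D3:**
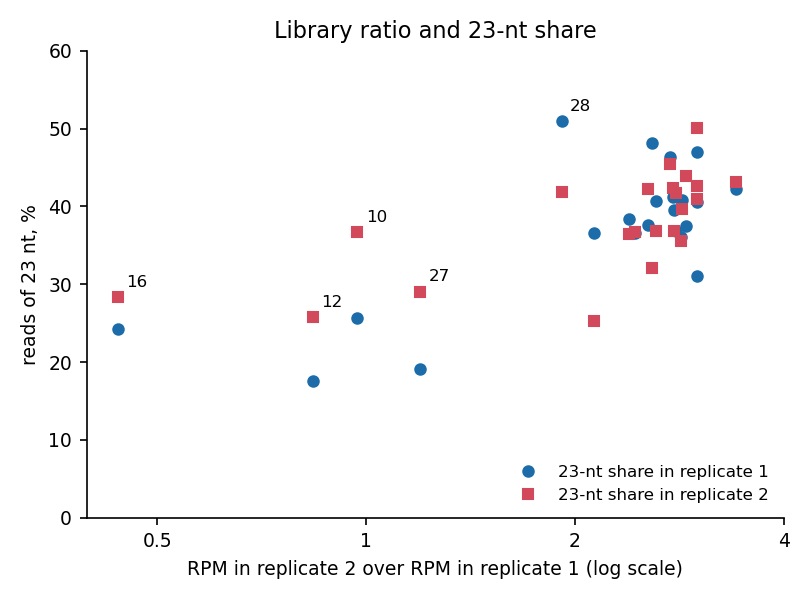
Share of reads of 23 nt (percent) against the ratio of RPM in replicate 2 to RPM in replicate 1 (log axis) for the 22 supercontigs with at least 100 reads in each library, with circles for the share in replicate 1 and squares for replicate 2. Supercontigs with a ratio under 2 are numbered. In replicate 1 the 4 supercontigs with a ratio under 1.5 lie at 17.6% to 25.7%, below all others.

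The low ratios belonged to stretches and not to whole supercontigs. Of the 101 dense windows, 86 had a ratio of 1 or more, with a median of 2.67, and 15 had a ratio under 1, with a median of 0.307. Of these 15 windows, 8 lay on supercontig 10, 3 on supercontig 12, 2 on supercontig 16 and 1 each on supercontigs 27 and 28. They carried 51.0% of the reads of supercontigs 8 to 30 in replicate 1 and 10.4% in replicate 2. The limit of 1 was set after the values were seen. What lies under 1 also depends on the scaling, as the ratio in sum was 1.46 here and 3.57 when scaled to all reads. Such a change of scaling moves all ratios by the same factor, so their order stays, but a ratio under 1 is no absolute fall.

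The same reads gave these windows other values than the other dense windows, which are a description since the reads that set the ratio also set these shares. Reads of 23 nt made up 21.5% in replicate 1 and 19.7% in replicate 2, against 38.6% and 40.1% in the other dense windows. Reads of 24 nt made up 28.4% and 31.5%, against 21.6% and 22.6%. The minor strand of a window held 7.98% and 12.5% of the reads, against 25.3% and 25.9%. Each member had 22.9 and 10.5 reads on average, against 2.26 and 5.03. The share of reads with a score of 0 was alike, 85.01% and 86.5% against 85.2% and 84.3%.

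Supercontig 16 showed both kinds of stretch side by side. Its first 1 kb held 12443 reads in replicate 1 and 10564 in replicate 2, of which 0 (which allows a share of up to 0.0241%) and 0.0663% lay on the plus strand. Its last 827 bases held 10605 and 7696 reads, with 99.9% and 98.5% on the plus strand. These were the densest windows of supercontigs 8 to 30 in replicate 1 and in the mean of the libraries, though not in replicate 2, and their ratios were 0.307 and 0.263. The 5 kb between them, with 1558 and 11559 reads, had a ratio of 2.68, 6.74% and 7.53% on the plus strand, and 45.6% and 47.7% of reads at 23 nt. In the first 1 kb reads of 23 nt made up only 13.1% and 4.53%, while 24 nt made up 56.5% and 61.1%. In the last 827 bases 23 nt led with 34.3% and 32.1%. The reads at both ends of supercontig 16 thus ran on opposite strands, with the low ratio at both ends. The 23-nt share was lower at both ends than in the 5 kb between them, and lowest at the first.

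Within the first 1 kb of supercontig 16, bases 601 to 720 of the minus strand held 11007 and 9661 reads. The member with the highest mean level of all, bases 689 to 712 on the minus strand, had 5157 reads or 5800 RPM in replicate 1 and 3955 reads or 1609 RPM in replicate 2. That was 21.0% and 13.3% of the reads of its supercontig, and 99.6% and 99.7% of them were copies of 1 sequence. The member at bases 650 to 673 of the same strand had 1637 and 2218 reads, or 1841 and 903 RPM. A neighbour that ends at the same base, bases 651 to 673, had 1022 reads in replicate 1 and 2 in replicate 2. In bases 601 to 720, 48.1% and 40.9% of the reads shared the 5′ end at base 712. All of these minus-strand reads, 100% in both libraries, had a score of 0. The listed place of such sequences can differ between the files, so listing and level cannot be told apart for the members there. The member with the highest mean level at the other end of supercontig 16, bases 6642 to 6664 on the plus strand, had 1427 and 505 reads, and there bases 6655 to 6677 and 6791 to 6814, with 733 and 843 and with 871 and 400 reads, had scores above 0.

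Supercontig 10 was divided near base 6000. The first 6 kb held 4426 reads in replicate 1 and 32581 in replicate 2, a ratio of 2.66. The plus strand had 56.7% and 59.7% of these, and 23 nt had 38.3% and 38.6%. The remaining 9.24 kb held 10480 and 7450 reads, a ratio of 0.257. Here the plus strand had 30.5% and 37.3%, and 23 nt had 20.4% and 28.4%. The first part held 29.7% of the reads of the supercontig in replicate 1 and 81.4% in replicate 2, and as its strands were the more even and fuller on plus, the change of sides between the libraries went with this shift. In the second part reads stood in peaks, most on 1 strand at a time. A single member at bases 14343 to 14367 on the minus strand had 2940 reads or 3306 RPM in replicate 1 and 4 reads or 1.63 RPM in replicate 2. Its score was 0, and for such a sequence the listed place can differ between the files, so listing and level cannot be told apart for it. The 100 bases around it, bases 14301 to 14400 of the minus strand, held 3073 and 430 reads, with 95.8% of the 5′ ends at base 14367 in replicate 1 and 48.8% at base 14363 in replicate 2.

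**Figure D4:**
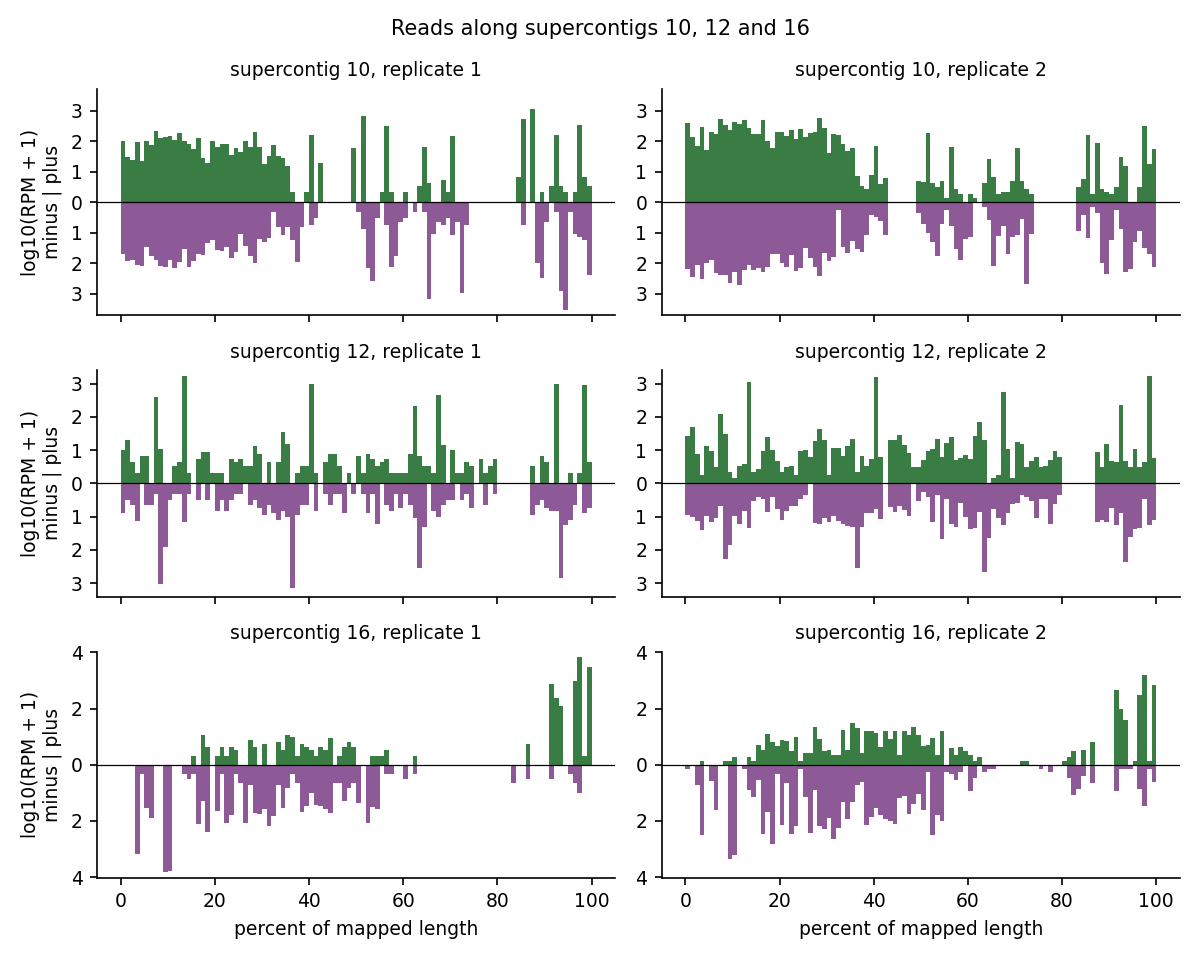
Reads along supercontigs 10, 12 and 16 in replicate 1 (left) and replicate 2 (right), as log10(RPM + 1) in bins of 1% of the mapped length, with plus-strand reads above and minus-strand reads below the line. Supercontig 10 has dense reads on both strands in its first part and separate peaks in the rest, supercontig 12 has 4 minus-strand peaks each followed by a plus-strand peak, and supercontig 16 has minus-strand peaks at its start and plus-strand peaks at its end.

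Supercontig 12 carried a pattern that recurred 4 times along its 13.5 kb. Each time a sharp peak on the minus strand was followed by a sharp peak on the plus strand, the minus-strand peaks at bases 1201 to 1300, 4801 to 4900, 8501 to 8600 and 12601 to 12700 and the plus-strand peaks at bases 1701 to 1800, 5401 to 5500, 9101 to 9200 and 13201 to 13300. These 8 bins of 100 bases make up 5.94% of the mapped length and held 77.1% and 74.9% of the reads. The leading 5′ end of the minus-strand peak and that of the plus-strand peak lay 526, 529, 529 and 529 nt apart in replicate 1 and 529, 529, 533 and 531 nt apart in replicate 2. From 1 recurrence to the next, the leading plus-strand 5′ end moved by 3659, 3709 and 4077 nt in replicate 1 and by 3661, 3709 and 4077 nt in replicate 2. The leading minus-strand 5′ end moved by 3656, 3709 and 4077 nt, and by 3661, 3705 and 4079 nt. The spacing within a recurrence thus varied by at most 7 nt, and the steps between recurrences were kept between the strands and between the libraries within 5 nt. The bins were chosen after the values were seen.

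The peaks of supercontig 12 rested on few ends. The leading 5′ end held 30.4% to 81.0% of a peak's reads in replicate 1 and 50.3% to 85.4% in replicate 2. In 7 of the 8 peaks at least 99.5% of the reads had a score of 0, so the level of a single peak depends on which copy was listed. Peak by peak the ratio of the libraries ran from 0.186 to 1.31 on the minus strand and from 0.636 to 1.88 on the plus strand. Summed over the recurrences, the minus-strand peaks had 3579 RPM in replicate 1 and 1233 in replicate 2, a ratio of 0.345. The plus-strand peaks that follow them had 4052 and 4983 RPM, a ratio of 1.23. Plus-strand reads that precede the minus-strand peaks are not in this sum and had low ratios, so a low ratio was not limited to the minus strand. The member with the highest mean level was bases 1761 to 1785 on the plus strand, with 846 reads or 951 RPM in replicate 1 and 1290 reads or 525 RPM in replicate 2. A further plus-strand peak at bases 12401 to 12500, before the last minus-strand peak, had 864 and 513 reads, a ratio of 0.215. Plus-strand reads also stood before the other minus-strand peaks. Bins of 1% of the length there held 395, 33.7 and 210 RPM in replicate 1 and 119, 12.6 and 67.1 RPM in replicate 2. All were lower in replicate 2, where the bin with 12.6 RPM did not stand out from bins near it. Members that differ by a few bases at their ends could change places between the libraries, as bases 4870 to 4891 on the minus strand had 840 reads in replicate 1 and 3 in replicate 2, and bases 13208 to 13232 on the plus strand had 15 and 1706.

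On supercontig 27 bases 1501 to 1600 of the minus strand held 433 of the 826 reads in replicate 1 and 254 of the 2732 reads in replicate 2, a ratio of 0.212, with 11.8% and 2.76% of them at 23 nt. The members of supercontig 13 were gathered at its ends too, but without a low ratio. Its first 2 kb held 58.8% and 58.0% of the reads and its last 1.43 kb held 31.5% and 32.3%, and the 7 kb between them held 9.66% and 9.71%. The ratios of the 3 stretches were 2.81, 2.92 and 2.87, and their 23-nt shares lay between 38.5% and 44% in both libraries. On supercontig 26 a single window, bases 1001 to 2000, held 73.5% and 73.8% of the reads, with 2365 and 7121 RPM, and was the third densest in the mean of the libraries and the densest of all in replicate 2. The fullest window of a supercontig held between 16.9% (supercontig 11) and 81.2% (supercontig 30) of its reads in replicate 1, and between 20.9% (supercontig 8) and 79.8% (supercontig 27) in replicate 2. The first 10% and the last 10% of the length together held from 3.33% (supercontig 28) to 72.1% (supercontig 16) in replicate 1 and from 4.80% (supercontig 25) to 65.3% (supercontig 13) in replicate 2, so reads were at the ends on some supercontigs and away from them on others.

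Positions on opposite strands met more often with 3′ overhangs of 2 nt than at other offsets. In such a pair of positions with the same span the minus-strand position starts 2 nt before the plus-strand position, the form in which Dicer leaves its products. Supercontigs 8 to 30 had 289 such pairs in replicate 1, against 186 ± 23.8 (SD) at the 20 other offsets within 10 nt, a ratio of 1.55, and 2945 in replicate 2 against 2146 ± 148, a ratio of 1.37. The highest of the other offsets had 242 and 2357 pairs. Taken span by span from 21 to 25 nt, the count was the highest of 21 offsets in 9 of 10 cases, with ratios of 1.25 to 2.31, and 21 nt in replicate 1 was the exception. The mean of the libraries was 1.46 ± 0.127 (SD, n = 2). Supercontigs 1 to 3 without the left-out region had ratios of 1.58 and 1.37, beside 1.55 and 1.37 here.

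**Figure D5:**
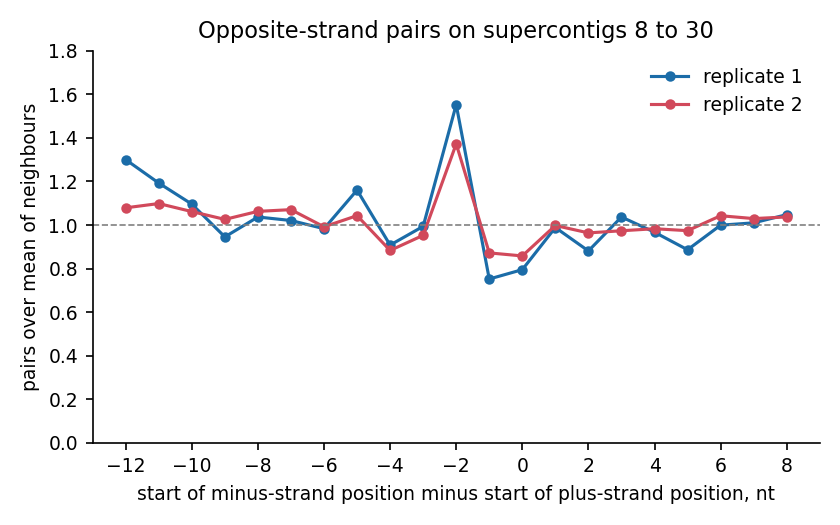
Number of pairs of positions with the same span on opposite strands of supercontigs 8 to 30, divided by the mean of the 20 neighbouring offsets, against the start of the minus-strand position minus the start of the plus-strand position in nt, for replicate 1 and replicate 2. The peak at -2 nt, at 1.55 and 1.37, is the offset of 3′ overhangs of 2 nt on both sides.

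The ratio was above 1 on 20 supercontigs in replicate 1 and on all 23 in replicate 2, where supercontig 9 had only 3 pairs. In replicate 1 supercontig 19, with 2 pairs, and supercontig 11, with 9 pairs, lay below 1, and supercontig 9 had no pair at any offset. The largest counts were those of supercontig 10, with 73 pairs at a ratio of 1.57 in replicate 1 and 570 at 1.28 in replicate 2. The 15 dense windows with a library ratio under 1 had 5 pairs in replicate 1, where the neighbours averaged 5.30, and 44 against 38.0 in replicate 2, or ratios of 0.943 and 1.16. The other dense windows had 276 and 2773 pairs and ratios of 1.56 and 1.38. The 5 pairs of replicate 1 are too few to set this against the spread of the neighbours, and the difference was not tested.

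Most reads of supercontigs 8 to 30 had a mapping score of 0. They made up 85.3% and 84.9% of the reads, or 85.1% ± 0.243 (SD, n = 2), against 70.1% ± 0.643 on supercontigs 1 to 3 and 71.2% ± 10.2 on supercontigs 4 to 7 (SD, n = 2). On most supercontigs the share was nearly fixed between the libraries, with a median SD of 0.567 percentage points against an SD of 14.1 over the supercontigs. The share moved most on supercontig 9, supercontig 10 (93.9% and 81.9%) and supercontig 16 (77.1% and 84.4%). It was highest on supercontigs 26 (99.8% in each library) and 30 (100% and 99.7%). As the mean of the libraries it was lowest on supercontig 9 (42.9% and 57.6%), supercontig 13 (55.1% and 56.8%) and supercontig 18 (61.1% and 62.4%).

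With scores above 0 alone, 4 supercontigs lay below supercontigs 1 to 3 in both libraries, supercontigs 9, 26, 27 and 30. On supercontig 30 this left 0 reads in replicate 1 (which allows a share of up to 0.694% of its reads) and 10 in replicate 2, and on supercontig 26, the second densest in the mean with every score, 7 and 48. Their density thus rested on sequences with a score of 0. Supercontig 16 kept 5647 and 4660 such reads and a ratio of 0.271, and supercontig 12 kept 487 and 764 and a ratio of 0.515. On supercontig 16 most of the kept reads came from the last 827 bases, where 47.9% and 48.1% had a score of 0. In its first 1 kb 99.7% and 99.4% of the reads had a score of 0, so the low ratio there rested on such sequences. On supercontig 10 the ratio with scores above 0 was 2.62, as nearly all reads of its second part (99.8% and 99.6%) had a score of 0.

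The libraries shared few of their members. Of the 73041 members, 9879 or 13.5% were listed in both, which is 51.1% of those of replicate 1 and 15.5% of those of replicate 2. The shared members held 73.8% of the reads of replicate 1 and 45.5% of replicate 2. Members with a score above 0 were found again more often, 72.5% of those of replicate 1 in replicate 2, than members with a score of 0, at 46.7%. Among members with at least 5 reads in the fuller library, replicate 2 listed 99.8% of those of replicate 1 with a score above 0 and 88.5% of those with a score of 0. Replicate 2 listed 1933 of all 1935 such members with a score above 0 and 9933 of 10402 with a score of 0. These shares were thus largely set by the limit and do not measure how well the libraries repeat each other. The depth of the lists differed, with 67.1% of the members of replicate 1 and 54.5% of replicate 2 seen once. Reads were also more concentrated in replicate 1, where the leading 247 members held 50% of the reads, than in replicate 2, where 2545 did. Members with at least 100 reads numbered 70 and 278, and in these the leading sequence made up 97.7% and 96.8% of the reads at the median, next to a few rarer sequences listed at the same place.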

How the data were processed

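Small RNA of wild-type S. japonicus was measured in 2 libraries. The deposited files list distinct sequences with 1 mapped place each and no header. The name of each sequence ends in a whole number that the authors deposited beside its rank, taken here as a raw count of identical reads, with no normalization recorded. The authors deposited a mapping score from 0 to 37 with each place. BWA is named in the submitters' processing notes; its version is not given in the sources used here, nor is the build, and positions count from 1 on the supercontigs as deposited.

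Reads of 21 to 28 nt on supercontigs 8 to 30 were summed by place with Python 3.11.15, pandas 2.3.3, numpy 2.4.6 and scipy 1.17.1, and scaled to reads outside bases 1 to 37000 of supercontig 3. Length was taken up to the last mapped base. A window of 1 kb was called dense at 100 RPM in each library. Simulated data were used to check the count of pairs. No test between groups was possible, so values carry the SD of 2 libraries and 95% exact binomial or Poisson intervals; intervals of ratios use counts on a log scale. Supercontigs were named as the 3 highest and 3 lowest in density, strand balance, 23-nt share and library ratio (the latter 3 with at least 100 reads in each library), and places as the 3 leading members and windows. Other stretches were chosen after their values were seen. The supercontigs and measures were chosen with earlier results of these data known. No annotation or sequence was joined to the reads, since the gene table at hand belongs to another assembly.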

Additional observations from a re-analysis of the deposited data

Results flagged for a closer look

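Reads shorter than the labelled sizes were left out of every value above. On supercontigs 8 to 30 they numbered 655 in replicate 1 and 592 in replicate 2, above the limit that a count of 0 allows (3 reads). They had spans of 19 or 20 nt and made up 0.827% and 0.186% of the reads there. Supercontig 16 held 629 and 514 of them, and the most read place, bases 6243 to 6262 on its plus strand, had 292 and 186. No control library was at hand.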

How the results depend on the processing

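Of 64 values under other settings, 39 stayed within the spread between the libraries (counts within 1.5 times) and 25 moved. For the library ratio, which has no such spread, a counting interval of 0.0114 was used instead. Some labels were fixed in advance. Apart from counts, a value without 1 library always lies within that spread. The limit of 5 reads had no spread and always counted as moved. The tally is thus no measure of how robust the results are. With scores above 0 alone, the share of reads was 5.66%, the density relative to supercontigs 1 to 3 was 6.35, supercontigs with few reads numbered 4, the minor strand held 24.5%, the library ratio was 1.36 and dense windows numbered 39. With each position counted once, the minor strand held 41.0%, score 0 held 81.9% and the library ratio was 1.34. With 23 nt alone, score 0 held 83.6% and the library ratio was 1.39. Scaled to all reads, the share was 5.82%, the library ratio 3.57 and dense windows numbered 57. Per kb of covered bases the relative density was 2.34 and 2 supercontigs had few reads. The minor strand per window held 20.6%. At 300 RPM, 62 windows were dense. At 5 reads or more, 39.3% of positions were in both libraries, 34.8% of those with score 0 and 63.7% of those with scores above 0. Without supercontigs 10, 12, 16 and 27, chosen after seeing the data, the share was 6.21%, the 23-nt share 40.6%, score 0 held 84.5% and the library ratio was 2.76. The cause of these moves was not tested. The leading supercontig, 16, held 31.3% and 9.40% of the reads of the libraries. The library ratio could not be computed without a library. No paired analysis was possible because there is 1 group. Depth limits supercontig 9 and the pair counts of replicate 1.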
